A study of Mus musculus with 2 samples.

Results

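The integrins, cadherins and catenins of mouse embryonic fibroblasts (MEFs) were compared between a line without Bmi1 and a line with it. Integrins are receptors built of an alpha and a beta subunit that hold cells to the matrix, and the alpha subunit largely sets whether a dimer binds collagen, laminin or ligands with an RGD sequence. Classical cadherins join neighbouring cells through calcium-dependent contacts between their outer domains, and their inner tails bind catenins, which link them to actin. Fibroblasts are known for N-cadherin, cadherin-11 and dimers of beta1 and alphaV integrins, whereas E-cadherin marks epithelia, VE-cadherin marks endothelia and beta2 and beta7 integrins mark blood cells. Members were taken by name: 36 genes were listed, comprising 19 integrin subunits, 12 cadherins and 5 catenins, and 35 of them matched 1 of the 18194 genes on the array. The collagen receptor subunit Itga11 had no probe set with 1 gene name in the annotation used here.

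The study hybridised RNA from 1 culture of Bmi1 null MEFs and from 1 culture of Bmi1 wild-type MEFs to 1 Affymetrix mouse expression array each. Both lines came from littermate embryos, had been immortalised with a TBX2 construct, and were labelled male and C57BL/6, and no treatment was applied. Each line is a single population, so genotype cannot be told apart from line, culture or array, no test could be made, and no p-value is given. Bmi1, the deleted subunit of Polycomb repressive complex PRC1, read 2146 in null cells and 9933 in wild-type cells at its brighter probe set, and 831 and 931 at its other one; whether they lie in the deleted part is not known here. The Y-linked gene Eif2s3y read 23.3 in null cells and 1683 in wild-type cells. At their brightest probe sets Uty (26.5 and 1187) and Kdm5d (15.3 and 712) did likewise. Y-linked signal was thus low in the null line despite its male label, and the reason was not tested. This difference cannot be told apart from genotype either. The fibroblast genes Vim (19233 in null and 19519 in wild-type cells), Pdgfrb (6951 and 6816) and Col1a1 (14841 and 6860) were bright on both arrays, while Thy1 read 50.7 in null cells and 375 in wild-type cells. Among 10 fibroblast markers, 3 (30%) passed 2-fold upward in null cells and 2 (20%) downward, against 5.73% and 5.16% of all measured genes. The largest differences were in Pdgfra, 9.31-fold lower (532 and 4952), and Lum, at least 7.29-fold higher (729 and 68.0).

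Values are MAS5 signals, 1 intensity for each probe set, and a member is represented by its brightest probe set (mean log2 signal of both arrays). A signal of 100 was used as a floor, and ratios are null over wild-type. Of the 35 matched members, 24 had a signal above the floor on at least 1 array and are called measured, and 11 were below it on both. A ratio with 1 array below the floor is a bound, written as at least N-fold. Between neighbouring probe sets of 1 gene, log2 ratios had an SD of 0.34 where the dimmer signal was 100 to 500, 0.27 at 500 to 2000 and 0.20 from 2000 up, which covers probe set error only.

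Members of both families differed between the lines, in both directions. In null cells the type II cadherins Cdh10 and Cdh11 and the neural catenin Ctnnd2 were at least 2-fold higher, 3 of 24 measured members (12.5%), against 5.73% of all 11766 measured genes. The integrin subunits Itgb7, Itgb3 and Itga6 and the endothelial cadherin Cdh5 were at least 2-fold lower. These were 4 of 24 (16.7%), against 5.16% of all measured genes. The members were chosen with earlier results of these data known, so these shares do not test whether the families differ more than other genes. The median log2 ratio was −0.06 over the measured members and 0.006 over all measured genes, and the median size of the log2 ratio was 0.65 and 0.30. The sign was split evenly, with 12 members above 0 and 12 below. By class, none of 14 measured integrins was 2-fold higher and 3 (21.4%) were 2-fold lower. Of 10 measured cadherins and catenins, 3 were 2-fold higher and 1 was lower. Beside shares of 5.73% and 5.16% over all measured genes, these counts are too small to set the classes apart. The ratios of Itgb3, Itgb7, Cdh10 and Cdh5 among them are bounds set by the floor. The class medians rest on 5 to 9 measured genes, and the beta subunit median of −0.65 was 0.058 without a floor.

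**Figure D1:**
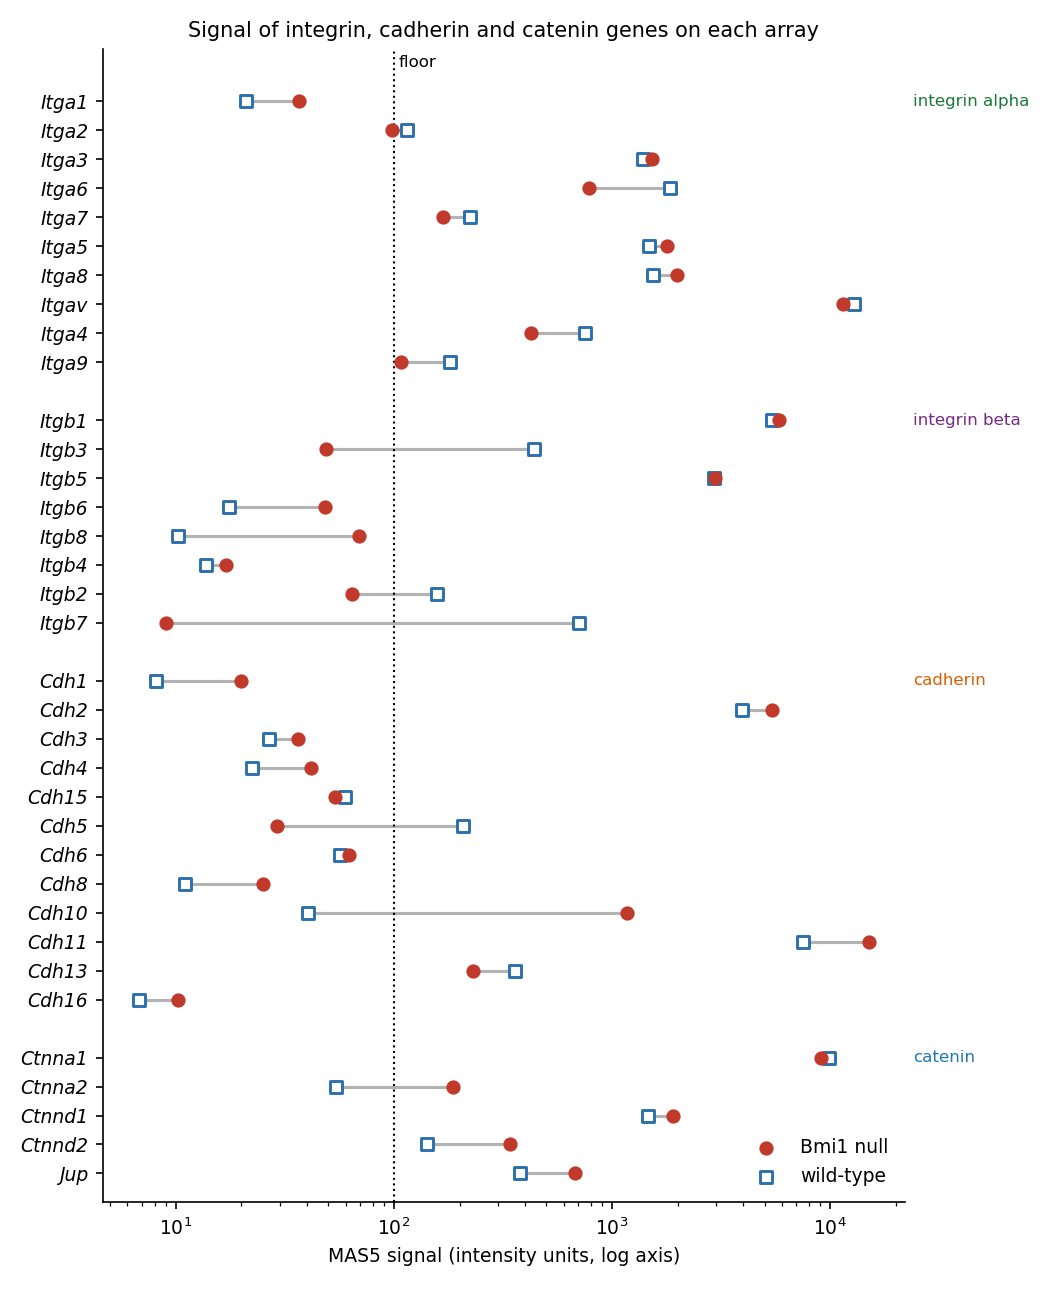
MAS5 signal (x axis, log scale, intensity units) of the 35 matched members on the Bmi1 null array (red circles) and the wild-type array (open blue squares), 1 row per gene at its brightest probe set, with the floor of 100 dotted. Long bars mark Itgb7, Itgb3, Cdh5 and Cdh10, each with 1 array below the floor, and Itgb5, Itgb1, Itgav and Ctnna1 have nearly overlapping symbols.

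Promoter sequences are shown for the members with the highest and the lowest ratio, Cdh10 and Itgb7, for Ctnnd2, and for Itgb1 as a member with nearly equal signals, because the study sorted promoters by their CpG content. They run 5′ to 3′ on the gene's strand from RefSeq (GRCm38.p6), and capitals mark CpG dinucleotides. Cdh10 lies at chr15:18820079-18820378 (plus strand), Itgb7 at chr15:102231886-102232185 (minus strand), Ctnnd2 at chr15:30172284-30172583 (plus strand) and Itgb1 at chr8:128685404-128685703 (plus strand).
Cdh10: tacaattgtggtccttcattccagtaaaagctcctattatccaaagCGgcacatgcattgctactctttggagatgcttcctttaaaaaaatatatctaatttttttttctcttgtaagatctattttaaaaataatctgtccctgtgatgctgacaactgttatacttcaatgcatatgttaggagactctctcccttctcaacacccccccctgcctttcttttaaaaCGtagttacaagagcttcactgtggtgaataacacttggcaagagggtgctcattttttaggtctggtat
Itgb7: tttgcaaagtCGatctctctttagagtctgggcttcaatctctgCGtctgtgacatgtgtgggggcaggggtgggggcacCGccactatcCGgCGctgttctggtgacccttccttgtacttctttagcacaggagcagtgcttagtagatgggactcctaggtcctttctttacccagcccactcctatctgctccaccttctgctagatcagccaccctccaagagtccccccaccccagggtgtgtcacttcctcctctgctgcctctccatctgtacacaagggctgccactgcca
Ctnnd2: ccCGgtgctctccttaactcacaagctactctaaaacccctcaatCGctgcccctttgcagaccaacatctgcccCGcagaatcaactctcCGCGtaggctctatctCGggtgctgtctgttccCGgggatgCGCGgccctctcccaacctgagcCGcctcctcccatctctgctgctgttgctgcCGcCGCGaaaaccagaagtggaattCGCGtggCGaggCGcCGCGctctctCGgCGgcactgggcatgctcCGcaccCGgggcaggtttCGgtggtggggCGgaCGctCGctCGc
Itgb1: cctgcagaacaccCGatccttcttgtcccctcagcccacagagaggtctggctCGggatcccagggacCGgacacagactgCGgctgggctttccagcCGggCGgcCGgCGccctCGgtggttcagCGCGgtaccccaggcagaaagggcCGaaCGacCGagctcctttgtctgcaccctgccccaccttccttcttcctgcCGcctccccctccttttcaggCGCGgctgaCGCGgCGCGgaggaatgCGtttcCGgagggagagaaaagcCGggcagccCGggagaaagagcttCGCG

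Of 300 bases each, the Cdh10 promoter held 2 CpG and the Itgb7 promoter 5, against 28 for Ctnnd2 and 27 for Itgb1. The median over 32851 promoters in the table was 7. Promoters were found for 22 of the 36 listed members (25 windows), and their CpG counts ran from 2 to 38 with a median of 13. Of the members past 2-fold, windows were found for Cdh10, Itgb7 and Ctnnd2, but not for Cdh11, Cdh5, Itgb3 or Itga6. Ctnnd2 alone of those found lay above the median of all promoters. CpG-rich windows also occurred at members that did not differ 2-fold, such as Itgb1 and Itgav (24 CpG). The E-box CAGGTG, read on both strands and contained in the wider motif CANNTG, was in 7 of the 25 windows and in 20.2% of all promoters, and it was absent from the windows printed above. The wider CANNTG was in 20 of the 25 windows and in 72.3% of all promoters, with 5 matches in the Cdh10 window and 2 in that of Itgb7. The study published a table of promoters that carry a peak of ubiquitylated H2A dependent on Bmi1. Among the listed members, Itga3 alone was found in it by symbol or synonym. The share of all genes in it was not computed here. Whether members appear there more or less often than other genes was therefore not tested.

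Of the alpha subunits that bind laminin, Itga6 and Itga7 were lower in null cells and Itga3 differed between its probe sets. Itga6, which pairs with Itgb1 or with Itgb4, had a signal of 784 in null cells and 1839 in wild-type cells. It was 2.35-fold lower in null cells, and its other probe set was 1.96-fold lower (245 and 480). Itga6 was the 1 alpha subunit past 2-fold at its brightest probe set. Itga3, a laminin receptor subunit of many adherent cells, read 1531 in null and 1392 in wild-type cells, 1.10-fold higher. A dimmer Itga3 probe set read 142 and 245, 1.72-fold lower, so the direction of Itga3 was not settled. Itga7, the laminin receptor subunit of muscle, had 1 probe set at 168 in null and 223 in wild-type cells, 1.33-fold lower. The partner Itgb4, known from the hemidesmosomes of epithelia, read 17.1 and 13.8 and was not measured.

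The alpha subunits of fibronectin and vitronectin receptors, which bind RGD, differed by less than 2-fold. Itgav, shared by the vitronectin receptors, read 11438 in null cells and 12824 in wild-type cells, 1.12-fold lower. Its next probe set read 611 and 935, 1.53-fold lower. Itga5, the alpha subunit of the main fibronectin receptor, was 1.21-fold higher (1788 in null and 1478 in wild-type cells). Dimmer Itga5 probe sets were 1.47-fold lower (216 and 317) and at least 1.03-fold lower (76.9 and 103). Itga8, a nephronectin receptor subunit of mesenchyme, was 1.30-fold higher (1994 and 1535) and 1.07-fold lower at its other probe set (398 and 427). The directions of Itga5 and Itga8 were thus not settled. At the brightest probe sets the log2 ratios of these RGD-binding alpha subunits lay between −0.17 and 0.38, and at the other measured ones between −0.61 and −0.04.

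Itga4 and Itga9, alpha subunits that bind VCAM-1 among other ligands and do not rely on RGD alone, were both lower in null cells by less than 2-fold at their brightest probe sets. Itga4 read 427 in null and 755 in wild-type cells, 1.77-fold lower. Its other measured probe sets pointed the same way, at 2.74-fold (251 and 690), 1.52-fold (143 and 217) and at least 1.26-fold (60.2 and 126). Itga9 read 107 and 180, 1.68-fold lower, with a second probe set at least 1.21-fold lower (72.1 and 121). The collagen receptor subunits were dim: Itga2 read 98.4 in null and 114 in wild-type cells, at least 1.14-fold lower, and Itga1 read 36.7 and 20.9, below the floor on both arrays.

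Among the beta subunits of adherent cells, Itgb3 stood apart from Itgb1 and Itgb5. Itgb1, which joins most alpha subunits of adherent cells, read 5828 in null and 5400 in wild-type cells, 1.08-fold higher, and its other measured probe sets gave 1.15-fold and 1.18-fold. Itgb5, a vitronectin receptor subunit with Itgav, read 2952 and 2938, 1.00-fold, with its other probe sets from 1.00-fold to 1.11-fold. Itgb1 and Itgb5 were thus nearly equal in both lines. Itgb3, the other widely known partner of Itgav, read 48.9 in null and 437 in wild-type cells, at least 4.37-fold lower. Its second probe set read 12.3 and 80.7, below the floor in both lines. Itgb6 (48.1 in null and 17.5 in wild-type cells) and Itgb8 (69.4 and 10.2), partners of Itgav known for activating latent TGF-beta, were not measured.

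Itgb7 and Itgb2 are beta subunits typical of blood cells. Itgb7, which pairs with Itga4 or Itgae on lymphocytes, read 9.01 in null and 706 in wild-type cells, at least 7.06-fold lower, the lowest ratio of the measured members and likewise a bound. The array held 1 Itgb7 probe set, so no second reading was available. Itgb2, shared by the leukocyte integrins, read 64.2 and 157, at least 1.57-fold lower, and Itgal, an alpha partner of Itgb2 that is not among the members, read 120 and 96.1, higher by less than 2-fold. Markers of leukocytes were dim on both arrays. Of 6 matched markers, 3 were below the floor on both, among them Ptprc, the pan-leukocyte CD45, at 36.1 in null and 12.4 in wild-type cells. The summed signal of the 6 was 537 and 582, and 0 of 3 measured markers differed 2-fold. Over all measured genes 10.9% did, and 3 markers are too few to compare with that share. In bulk RNA, fewer cells of a type and less RNA per cell cannot be told apart.

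**Figure D2:**
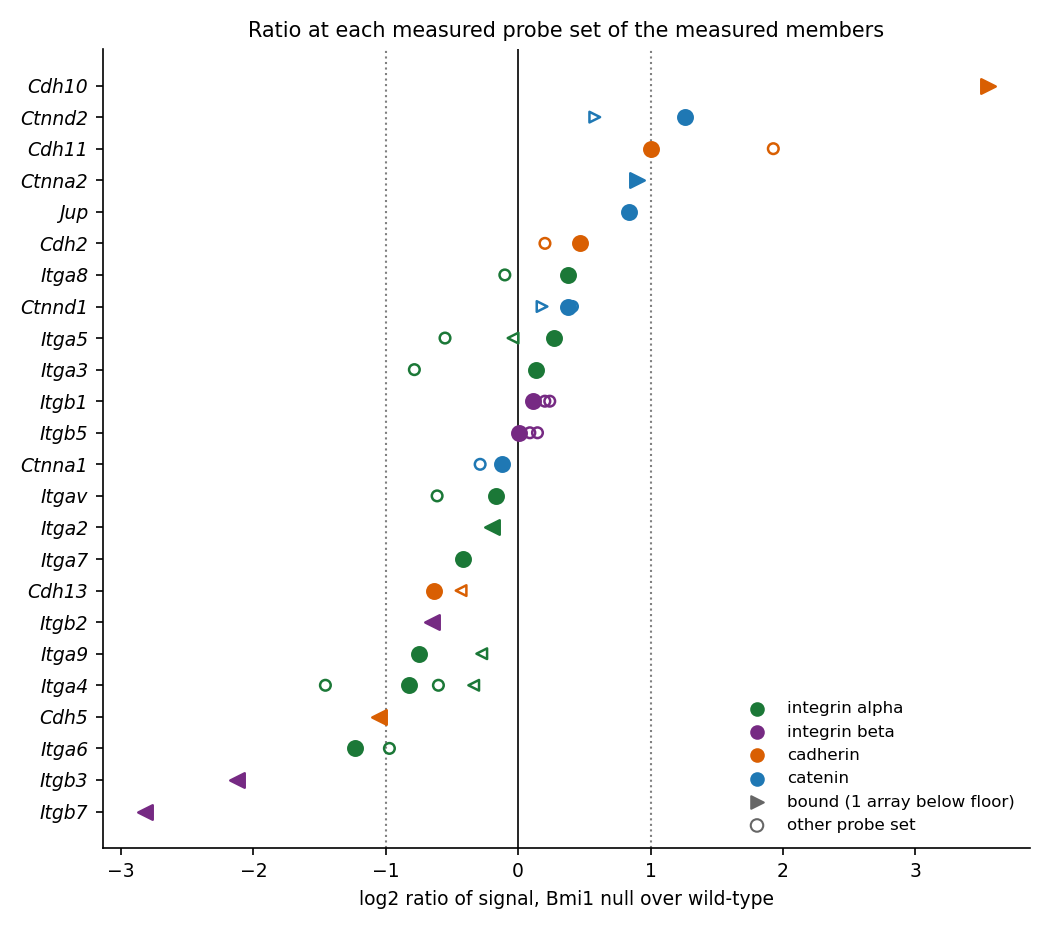
Log2 ratio of signal (x axis, null over wild-type) at each measured probe set of the 24 measured members, sorted by the brightest probe set (filled symbols) and coloured by class. Open symbols are other probe sets, triangles are bounds with 1 array below the floor, and dotted lines mark 2-fold. Cdh10 lies furthest right and Itgb7 furthest left, and the probe sets of Itga3, Itga5 and Itga8 lie on both sides of 0.

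The mesenchymal cadherins Cdh2 and Cdh11 were far above the floor in both lines, and most other cadherins were below it. Cdh2 (N-cadherin), a type I cadherin of mesenchyme and neurons, read 5406 in null and 3919 in wild-type cells, 1.38-fold higher, and 1.15-fold higher at its other probe set (1479 and 1285). The other type I cadherins were not measured: Cdh1 (E-cadherin) read 19.9 in null and 8.10 in wild-type cells, and Cdh3 (P-cadherin), Cdh4 (R-cadherin) and Cdh15 (M-cadherin of muscle) had signals from 22.4 to 59.7 at their brightest probe sets. Of 9 markers of epithelia, 7 were below the floor in both lines, although Epcam was 5.59-fold higher in null cells (834 and 149). The summed signal of these 9 markers was 1307 in null and 547 in wild-type cells. Of 7 skeletal muscle markers, 5 passed the floor on neither array and 0 of the 2 measured differed 2-fold. These 2 are too few to set against the 10.9% of all measured genes.

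The 3 measured type II cadherins, which lack the HAV motif of the type I group, were Cdh11, Cdh10 and Cdh5, and each passed 2-fold. Only 1 type I cadherin, Cdh2, was measured, so the types could not be compared. Cdh11 (OB-cadherin), known from mesenchyme and bone-forming cells, read 15003 in null cells and 7475 in wild-type cells, 2.01-fold higher. Its other probe set read 3282 and 863, 3.80-fold higher, so both pointed the same way and the brighter of them lay at the 2-fold limit. Cdh11 was just below 2-fold with log2 ratios centred on the median of all genes and with a pseudocount. Cdh10, known mainly from the brain, read 1169 in null and 40.4 in wild-type cells, at least 11.7-fold higher, the highest ratio of the measured members, although a bound set by the floor. The 3 other Cdh10 probe sets were below the floor on both arrays, at 92.5 and 91.7, 66.4 and 41.1, and 34.9 and 3.10 in null and wild-type cells. The Cdh10 difference therefore rests on 1 of 4 probe sets.

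Cdh5 (VE-cadherin), the junctional cadherin of endothelium, differed the other way. It read 29.2 in null and 208 in wild-type cells, at least 2.08-fold lower, while its second probe set passed the floor in neither line (79.3 and 58.2). With the floor doubled to 0.4 times the trimmed mean the Cdh5 log2 ratio was −0.05. Of 7 endothelial markers, 5 were below the floor on both arrays, among them Pecam1 at 37.4 in null and 15.8 in wild-type cells, and their summed signal was 387 and 247. Cdh8, Cdh11 and Cdh5 follow each other on chromosome 8 with 0 annotated protein-coding genes between them. These neighbours read differently, with Cdh8 not measured (25.1 and 11.1), Cdh11 higher and Cdh5 lower in null cells. Cdh6, a cadherin of kidney and neural crest, was not measured (62.4 and 56.7).

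Cadherins outside the type I and type II groups were dim. Cdh13 (T-cadherin), which is anchored in the membrane by a lipid and has no catenin-binding tail, read 230 in null and 357 in wild-type cells, 1.56-fold lower. A second probe set was at least 1.35-fold lower (78.8 and 135). Cdh16, a kidney cadherin, read 10.2 and 6.80 and was not measured. Over the 12 cadherins, 5 were measured and their median log2 ratio was 0.46, with a range from −1.05 to 3.55. A floor lowered to 0.1 of the trimmed mean gave a median of 0.14, and a pseudocount gave 0.13.

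All 5 catenins were measured, and 4 of them had ratios above 0. Ctnna1 (alphaE-catenin), the link from cadherins to actin in most cells, was nearly equal at 9044 in null and 9869 in wild-type cells, 1.09-fold lower, and 1.22-fold lower at another probe set. Its neural relative Ctnna2 (alphaN-catenin) read 187 in null and 54.2 in wild-type cells, at least 1.87-fold higher at its 1 probe set. Both listed catenins of the p120 family, which binds the cadherin tail next to the membrane, were higher in null cells. Ctnnd1 (p120) read 1894 and 1461, 1.30-fold higher, with its other probe sets at 1.33-fold and at least 1.13-fold. Ctnnd2 (delta-catenin), known from neurons, read 339 and 142, 2.39-fold higher, and a second probe set was at least 1.49-fold higher (149 and 85.9). Ctnnd2 fell short of 2-fold with the mean of both probe sets (log2 ratio 0.92), with a pseudocount (0.86) and when the floor was raised to 0.4 of the trimmed mean (0.76). Jup (plakoglobin), shared by adherens junctions and desmosomes, read 678 and 380 at its 1 probe set, 1.78-fold higher. The median over the catenins was 0.84, and 0.37 without the probe sets of the suffixes _s_at, _x_at and _a_at.

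Neural markers were compared because Cdh10, Ctnna2 and Ctnnd2 are known from neurons. Of 7 neural markers, 3 were below the floor on both arrays (Sox2, Dcx and Snap25). The microtubule protein gene Map2 was 8.77-fold higher in null cells (2132 and 243), and Tubb3 was 2.70-fold lower (122 and 330). The summed signal of the 7 neural markers was 4578 in null and 2217 in wild-type cells, and most of that difference came from Map2. Nes, the other bright marker, read 2128 and 1467, 1.45-fold higher. Contractile genes of smooth muscle, in which Cdh2, Itga7 and Itga8 are also known, had a summed signal of 36566 in null and 21376 in wild-type cells. Most of it came from Acta2 (18218 and 12575) and Tagln (13058 and 8334), 1.45-fold and 1.57-fold higher. Of the 6 genes, 4 (66.7%) were at least 2-fold higher, against 5.73% of all measured genes. They were led by Cnn1 (at least 22.9-fold) and Smtn (5.85-fold). The part of these genes in the member ratios was not tested.

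**Figure D3:**
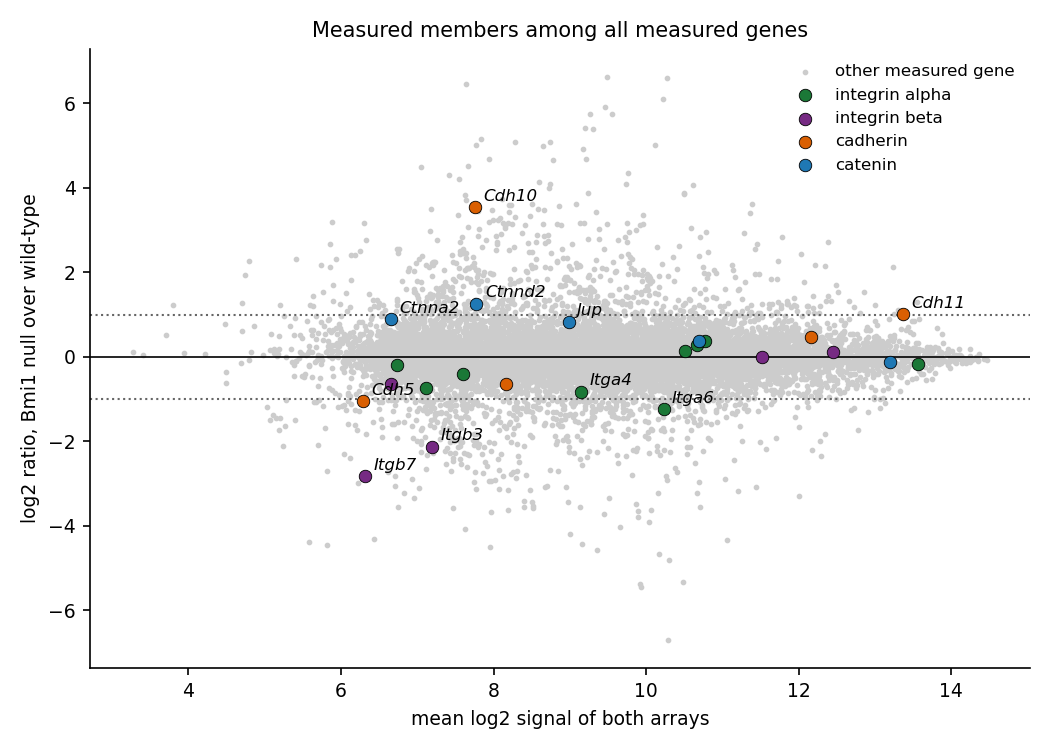
Log2 ratio, null over wild-type (y axis), against the mean log2 signal of both arrays (x axis) for the measured genes (grey) and the 24 measured members (coloured by class). Dotted lines mark 2-fold and names are given where the log2 ratio was at least 0.8 in either direction. Bright members such as Itgav, Itgb1 and Ctnna1 lie near 0, Cdh11 is the bright member at the upper line, and Itgb7, Itgb3 and Cdh5 lie at low mean signal with 1 array below the floor.

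Dimer partners could be read side by side. Itgav and Itgb5 were 1.12-fold lower and 1.00-fold, while Itgb3, which also joins Itgav, was at least 4.37-fold lower. Its other partner, Itga2b of platelets, read 494 in null and 344 in wild-type cells, 1.44-fold higher. Itga4 and Itgb7 were both lower, whereas Itgb1, the other partner of Itga4, was 1.08-fold higher. Itga6 was 2.35-fold lower beside an Itgb1 that was nearly equal in both lines. For the cadherins, Ctnnb1 (beta-catenin), which is not among the members and binds the same tail as Jup, read 12543 in null and 12968 in wild-type cells, 1.03-fold lower.

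Genes that act inside the cell with integrins were examined as a list of 28 activators and focal adhesion adaptors, of which 23 were measured. At least 2-fold higher signal in null cells was found for 1 of them (4.35%) and 2-fold lower for 2 (8.70%). These shares lay near the 5.73% and 5.16% of all measured genes. The median log2 ratio was 0.17. Parvb (beta-parvin), a partner of the integrin-linked kinase Ilk, read 54.4 in null and 871 in wild-type cells, at least 8.71-fold lower. Its relative Parva (alpha-parvin) was 1.60-fold higher (4173 and 2602). The PINCH relatives Lims1 and Lims2, which bind the same kinase, were 1.47-fold (4706 and 3211) and 4.13-fold higher (453 and 110). Tns3 (tensin 3) was 2.28-fold lower (2672 and 6089), while Tns1 was 1.79-fold higher (1835 and 1026). The parvin and tensin families thus held members on both sides of 0. Talin (Tln1, 1.13-fold higher) and Ilk (1.23-fold higher) were near equal, kindlin-2 (Fermt2) was 1.51-fold higher, and vinculin (Vcl) read 16667 in null and 8950 in wild-type cells, 1.86-fold higher.

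Other genes of cell junctions were compared in the same way. Of 15 other catenins, plakophilins and nectins, 11 were measured, with a median of −0.05. Of these, 1 was at least 2-fold higher in null cells (Ctnnal1, 2.50-fold, 478 and 191) and 0 were 2-fold lower. The 1 higher gene was 9.09% of those measured, against 5.73% of all measured genes, of which 5.16% were 2-fold lower. The nectin adaptor Afdn (afadin) read 750 in null and 1453 in wild-type cells, 1.94-fold lower, and Nectin3 was 1.52-fold lower (2177 and 3300). Of 6 matched other integrin subunits 2 were measured, Itga2b and Itgal, and of 9 matched other cadherins 1 was, Cdh23 (at least 1.18-fold higher). None of these 3 passed 2-fold with the floor, but the ratios of Itgal and Cdh23 are bounds. Cdh23 read 118 in null cells and 43.2, below the floor, in wild-type cells. The 5 matched desmosomal cadherins were below the floor on both arrays.

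**Figure D4:**
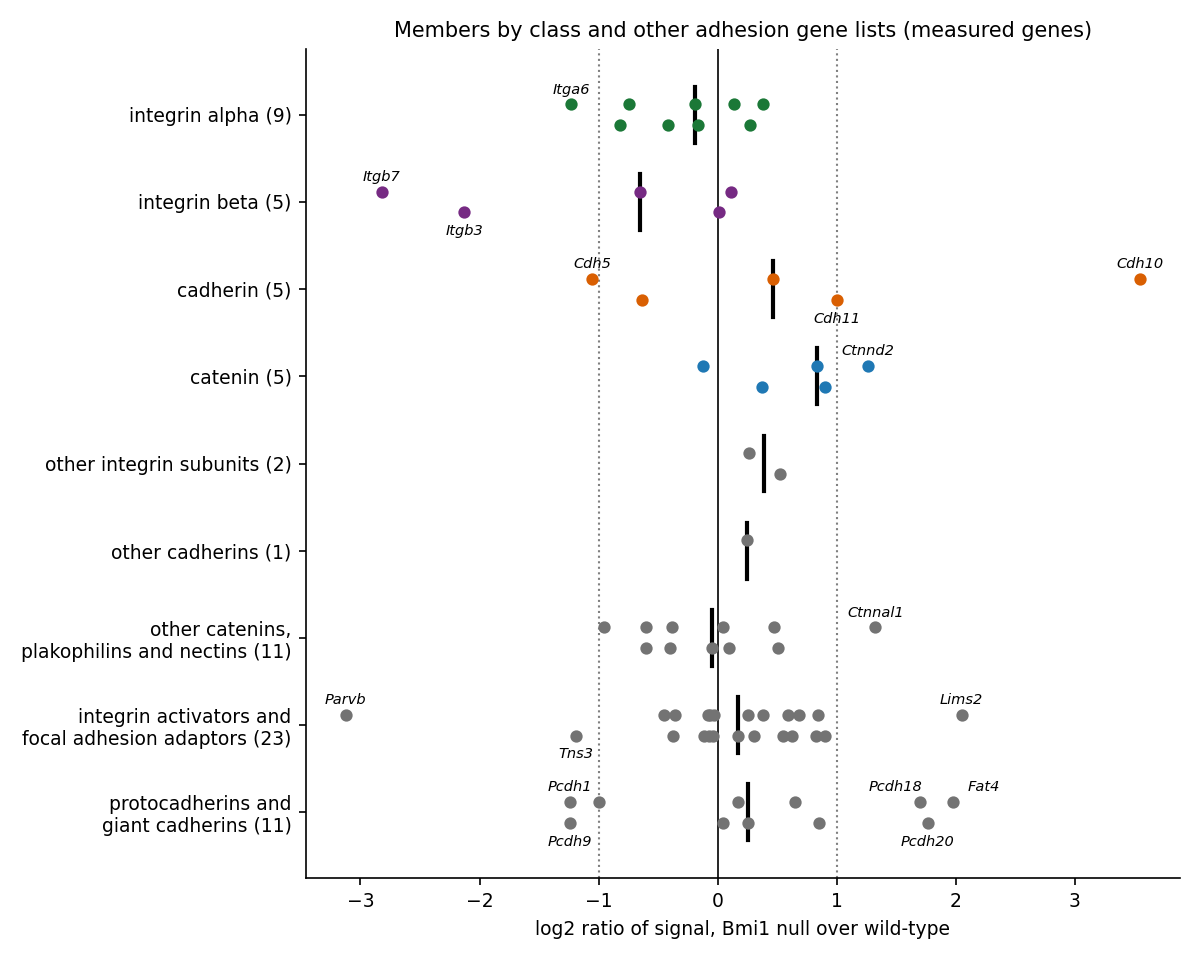
Log2 ratio, null over wild-type (x axis), of each measured gene (points) of the 4 member classes (coloured) and of 5 other adhesion lists (grey), with the number of measured genes in brackets, black bars at the list medians and dotted lines at 2-fold. Names are given to genes past 2-fold. Integrin medians lie left of 0 (−0.19 for alpha and −0.65 for beta subunits), with the beta median at 0.058 without a floor and 0.024 with a pseudocount, those of cadherins and catenins lie right of it (0.46 and 0.84, but as low as 0.13 and 0.37 under other settings), and Parvb lies at the far left of the adaptor list.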

How the data were processed

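The authors derived 1 linear MAS5 intensity per probe set on each array and scaled each array as a whole, since in the deposited values the mean after removal of 2% at each end was 500 on both. The scaling settings are not given in the sources used here. A single factor per array hides a change shared by most transcripts. Of 45101 probe sets, the platform annotation gave 1 gene symbol for 34958, several for 932 and none for 9211, and symbols were checked through Entrez identifiers against RefSeq. The brightest probe set by mean log2 signal stood for each of 18194 genes. Signals below 0.2 times the trimmed mean were set to that floor of 100, and genes at or below it on both arrays (6428) were not measured. The probe set SD is the root mean square difference between probe sets adjacent in brightness, divided by the square root of 2, over 7470 pairs above the floor on both arrays. Probe set signals do not rank one gene against another. There was no replicate, and so no test or p-value, and the number of arrays limits the precision.

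The members and lists were chosen with earlier results of these data known. All members are named. From 6 other adhesion lists, genes past 2-fold whose higher signal reached the trimmed mean were to be named (up to 4 a list), from 7 marker lists up to 2 by the same conditions, with Col1a1, Vim, Thy1 and Pdgfrb. Other non-members were named after their values were seen. They include Eif2s3y, Uty, Kdm5d, Tubb3, Nes, Acta2, Tagln, Itgal, Lims2, Ctnnal1, Pcdh20, Pcdh1, the adaptors and nectins within 2-fold and the markers below the floor. Alternatives were 8 settings of floor, probe set choice and scaling. Calculations used Python 3.11.15, numpy 2.4.6 and pandas 2.3.3, and were tested on simulated data. The simulated noise was smaller than the spread between probe sets. It therefore checked the calculations and not how well 2-fold differences hold in these data.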

Additional observations from a re-analysis of the deposited data

How the results depend on the processing

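The direction of the 7 members past 2-fold was the same under each of the 8 alternative settings in which they had a ratio, but counts and class medians with few measured genes moved. Without a floor, where all 35 matched members have a ratio, 8 members passed 2-fold upward in null cells, the median over members was 0.27 and that of beta subunits 0.058. With a pseudocount, again over 35 members, 1 member was 2-fold higher, and the medians of beta subunits and cadherins were 0.024 and 0.13. With a floor of 0.1 times the trimmed mean the cadherin median was 0.14, and without probe sets of the suffixes _s_at, _x_at and _a_at the catenin median was 0.37. The count of members 2-fold lower was 3 to 5 over the 8 settings. Of 185 single-member ratios under the alternatives, 26 moved by more than 0.30, the SD between probe sets over all pairs, and 4 had the other sign, in Itga3, Itga5 and Itgb5. The ratios of Cdh10, Itgb3, Itgb7, Cdh5, Itgb2, Itga2 and Ctnna2 are bounds that depend on the floor, and Ctnna2 and Itgb2 passed 2-fold with the lower one. No paired analysis was possible because each group has 1 array.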

Other observations

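Protocadherins and giant cadherins, relatives of the classical cadherins that act in neural wiring and planar polarity, differed in both directions. Of 18 matched genes 11 were measured, and their median log2 ratio was 0.26. In null cells 3 of them (27.3%) were 2-fold higher or more and 2 (18.2%) were 2-fold lower or more. Over all measured genes these shares were 5.73% and 5.16%. Fat4, a giant cadherin of the planar polarity and Hippo pathways, read 2053 in null and 523 in wild-type cells, 3.92-fold higher, while its ligand Dchs1 was 1.03-fold higher (301 and 292). Pcdh18 was 3.26-fold higher (886 and 272) and Pcdh20 3.40-fold (384 and 113). Pcdh9 was 2.36-fold lower (504 and 1190), Pcdh19 2.00-fold lower (836 and 1671, just short of the 2-fold limit) and Pcdh1 at least 2.36-fold lower (34.8 and 236).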
